A study of Homo sapiens with 4 samples.

Results

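The genes described here encode the machinery that copies DNA in S phase. They were 49 genes, taken by their symbols from a list of replication proteins and ordered by role, out of the 13036 genes with values in the files. To look for genes downstream of KIAA1429, RNA had been sequenced from HCCLM3, a human hepatoma cell line, in 2 groups of 2 libraries. The shCtrl cells carried a lentiviral control hairpin and the shKIAA1429 cells a lentiviral hairpin against KIAA1429, a scaffold of the complex that writes N6-methyladenosine on RNA and now named VIRMA. By the methods of the study the knockdown was stable and the hairpin followed 1 siRNA sequence, so that an effect of the hairpin cannot be told apart from one of KIAA1429. Nothing in the labels says that the replicates came from separate infections or cultures, and p-values then measure only the spread between these libraries.

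A replication origin is licensed in G1, when the origin recognition complex, CDC6 and CDT1 load the ring-shaped MCM2 to MCM7 helicase on DNA. CDC45 and the GINS complex switch the helicase on in S phase, polymerase alpha-primase starts each strand, and polymerases delta and epsilon extend it with the PCNA clamp. Most of these genes are transcribed as cells pass from G1 into S phase, under E2F transcription factors held back by the retinoblastoma protein. In a mixed culture their RNA therefore depends on how many cells are cycling, and in such bulk RNA fewer cells in S phase and less RNA per cell cannot be told apart.

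Values are FPKM, sequenced fragments scaled to transcript length and library total, and the transcripts of a gene were added together. Each fold change compares shKIAA1429 with shCtrl as a difference of mean log2(FPKM + 1), a scale that makes changes of weakly expressed genes look smaller. They come from a limma fit over the 11657 genes with at least 1 FPKM in at least 2 libraries, and all 49 replication genes passed that filter. A gene was called when its adjusted p-value was under 0.05 and its absolute log2 fold change over 1. VIRMA was at 9.37 and 14.1 FPKM with shCtrl, against 6.90 and 8.52 FPKM with shKIAA1429 (log2 fold change -0.53, SE 0.24, limma adjusted p = 0.917). The targeted gene thus lay lower in both shKIAA1429 libraries, by an amount that did not pass the test. Leaving out shCtrl replicate 2 brought the log2 fold change to -0.26, and leaving out shCtrl replicate 1 to -0.80. Mitochondrial transcripts took 9.29% to 9.44% of the summed FPKM in 3 libraries and 10.59% in shKIAA1429 replicate 1, which also had the most transcripts listed at 0, 1492 against 810 to 1277. Of the hepatocyte and hepatoma markers only SERPINA1, KRT8 and KRT18, 3 of 16, had values to check, and their sum lay between 2092.8 and 2210.8 FPKM in the 4 libraries, nearly all of it from the keratins KRT8 and KRT18. ALB and AFP were not analysed here.

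The replication genes separated the libraries by replicate number more than by hairpin. Their summed FPKM was 814.0 in the first and 1154.2 in the second shCtrl replicate, against 633.9 in the first and 1107.5 in the second shKIAA1429 replicate. Replicate 2 was thus the higher library in both groups, and shKIAA1429 replicate 1 was the lowest of the 4. Of the 49 genes, 41 were higher in replicate 2 than in replicate 1 of shCtrl, and the median difference over the 49 was 0.53 on the log2 scale. In shKIAA1429 46 were higher in replicate 2, with a median difference of 0.74. Over all genes tested the shares higher in replicate 2 were 50.1% and 53.2%, with medians of 0.00054 and 0.023. These are differences between single libraries and were not tested.

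shKIAA1429 replicate 1 held the lowest value of 44 of the 49 genes. The highest value lay in shCtrl replicate 2 for 27 genes and in shKIAA1429 replicate 2 for 18. As a deviation from the mean of each gene over the 4 libraries, the median replication gene lay at -0.17 and 0.37 in the shCtrl replicates and at -0.45 and 0.30 in the shKIAA1429 replicates. The library with the lowest replication genes was also the one with the highest mitochondrial share and the most transcripts at 0, and the part of either in this result was not tested.

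**Figure D1:**
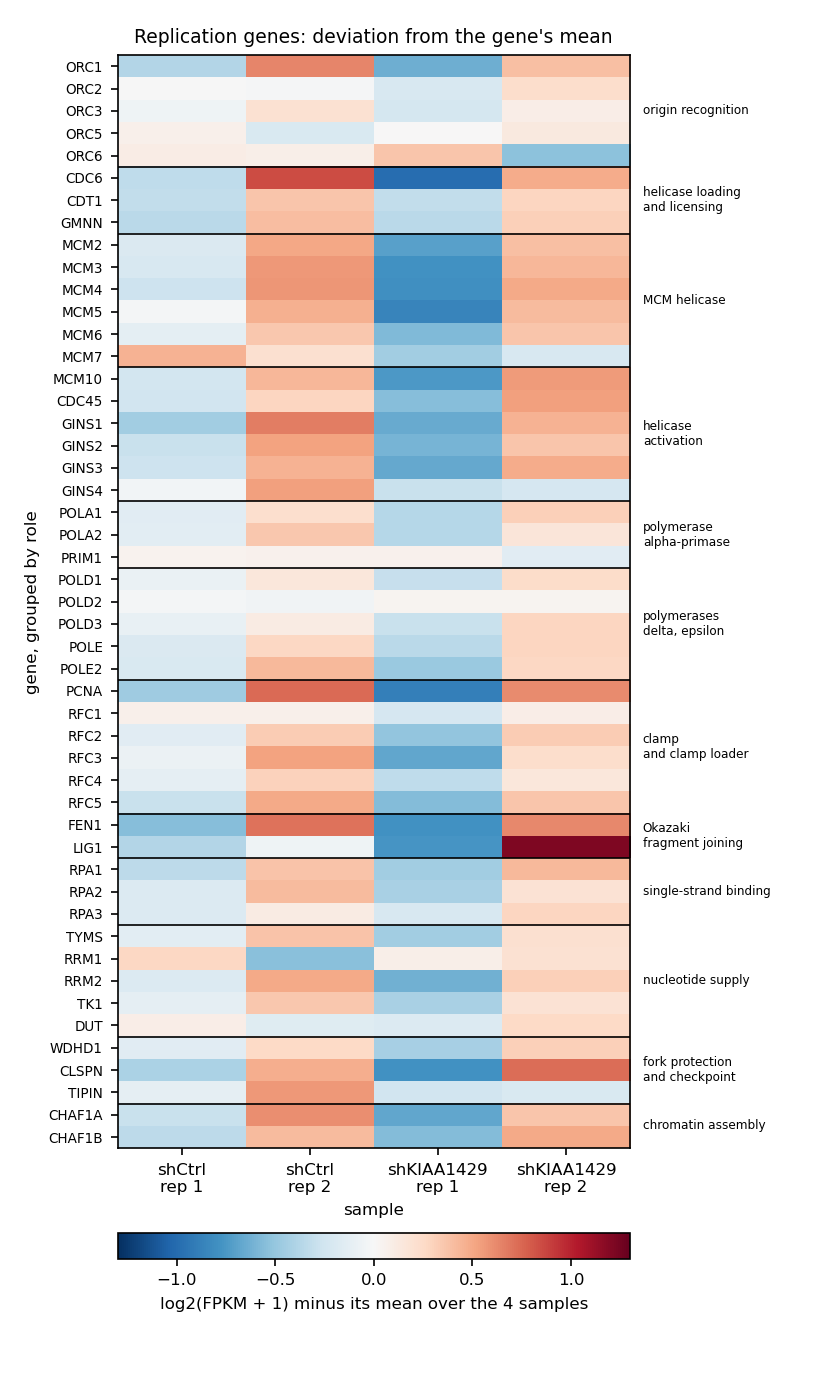
Each row is 1 of the 49 replication genes, grouped by role, and each column 1 library; color gives log2(FPKM + 1) minus the mean of the gene over the 4 libraries, blue for lower and red for higher. The column of shKIAA1429 replicate 1 holds the lowest value of 44 genes, and both columns of replicate 2 are mostly red; POLD2 is nearly white throughout.

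The comparison of the groups asked whether the replication genes differed with the hairpin. No replication gene was called, against 0% of all genes tested, and the limma adjusted p-values of the 49 ran from 0.650 to 0.999. At an unadjusted p under 0.05 there was 1 replication gene, MCM7, where 5.63% of all genes tested had one. The log2 fold change was below 0 for 42 of the 49 genes, or 85.7% against 51.9% of all genes tested. Its median was -0.18 against -0.0083 over all genes tested, with a range from -0.66 for MCM7 to 0.44 for LIG1.

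That direction rested on 2 libraries. Without shCtrl replicate 2 only 12 of the 49 genes had a fold change below 0, where 51.1% of all genes did, and without shKIAA1429 replicate 1 only 5 had one, where 47.7% of all genes did. The counts were 43 and 44 without shCtrl replicate 1 and shKIAA1429 replicate 2, where 51.4% and 52% of all genes lay below 0. The median became 0.065 without shCtrl replicate 2 and 0.24 without shKIAA1429 replicate 1. It was -0.46 without shCtrl replicate 1 and -0.55 without shKIAA1429 replicate 2. The shKIAA1429 libraries both lay below the shCtrl libraries for 3 genes, MCM7, GINS4 and TIPIN, where 16.7% of all genes tested did so. Both lay above for 1 gene, POLD2, where 16.9% of all genes did so. With a library left out, the first count was 28 without shCtrl replicate 1, 4 without shCtrl replicate 2, 5 without shKIAA1429 replicate 1 and 44 without shKIAA1429 replicate 2, where 35%, 32.3%, 30.6% and 38.3% of all genes were arranged so. In the same order the second count was 3, 1, 19 and 2, where 34.1%, 30.6%, 33.3% and 33% of all genes were. A group difference larger than both replicate differences was found for 2 genes, MCM7 and POLD2, or 4.08% against 22.1% of all genes tested.

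**Figure D2:**
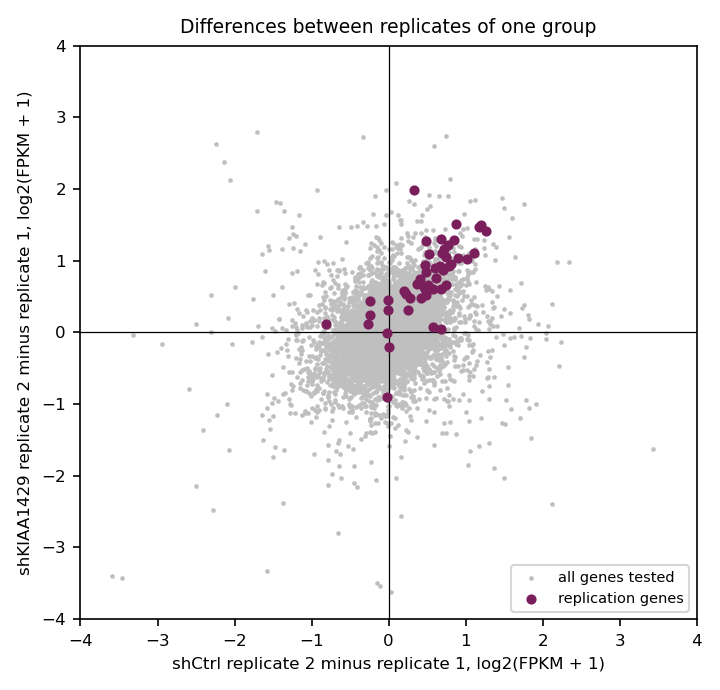
The horizontal axis gives replicate 2 minus replicate 1 of shCtrl and the vertical axis the same difference in shKIAA1429, both in log2(FPKM + 1); gray points are all genes tested, 5 of which lie outside the axes, and purple points the 49 replication genes. Most purple points lie in the upper right, 41 of them to the right of 0 and 46 above it.

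The promoters of these genes are shown because most of the genes are known to be transcribed under E2F factors. RefSeq windows on GRCh38.p14, from 250 bases before to 50 bases after an annotated start, were matched for 43 of the 49 genes; MCM4, MCM5, GINS4, POLD3, RPA2 and RPA3 had no entry. They were searched on both strands for 4 spellings of the E2F motif, TTTCCCGC, TTTCGCGC, TTTGCCGC and TTTGGCGC. Of the 43 genes 22, or 51.2%, had at least 1 match, against 6.89% of the 8719 tested genes with a window and 3.99% of all genes with a window of the same length. Some matches overlap on opposite strands, as in MCM2, MCM6 and TIPIN. The following stretches of 30 bases are given on the strand of the gene, with the matched letters in capitals, as examples from licensing, the helicase, the clamp, the leading-strand polymerase and the checkpoint.
CDC6 (chr17:40287875-40287904, plus strand): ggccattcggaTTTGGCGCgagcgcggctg
MCM2 (chr3:127598402-127598431, plus strand): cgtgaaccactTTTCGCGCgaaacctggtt
MCM3 (chr6:52284728-52284757, minus strand): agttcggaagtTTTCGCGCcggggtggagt
MCM6 (chr2:135876515-135876544, minus strand): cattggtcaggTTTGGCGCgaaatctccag
MCM7 (chr7:100101388-100101417, minus strand): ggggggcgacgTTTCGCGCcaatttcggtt
PCNA (chr20:5126663-5126692, minus strand): cagcgtcagggGCGGGAAAaggcgtgcgtt
POLE (chr12:132687342-132687371, minus strand): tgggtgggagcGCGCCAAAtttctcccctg
CLSPN (chr1:35769965-35769994, minus strand): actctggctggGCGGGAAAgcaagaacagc

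In PCNA, POLE and CLSPN the motif reads on the opposite strand, so that the capitals show its reverse complement. The 22 genes with a match had median replicate differences of 0.65 in shCtrl and 0.83 in shKIAA1429 and a median log2 fold change of -0.22. The 21 without a match had 0.47, 0.74 and -0.14, so that both sets were higher in replicate 2. Whether a match goes with these differences was not tested. The letters CCAAT, the core of the site of the factor NF-Y, were present in 62.8% of the replication genes with a window and in 43.1% of the tested genes. A match describes the letters in these windows, and no binding was measured.

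The origin recognition complex marks origins and recruits the helicase loaders. ORC1, its ATPase subunit that many cells degrade after G1, was at 3.26 and 7.61 FPKM with shCtrl, against 2.59 and 6.28 FPKM with shKIAA1429. It was higher in replicate 2 by 2.34-fold and 2.43-fold, and the groups overlapped (log2 fold change -0.24, SE 0.48). The subunits ORC2, ORC3 and ORC5 varied little, between 3.56 and 10.7 FPKM in all libraries. ORC6 ran the other way in shKIAA1429, at 2.99 FPKM in replicate 1 and 1.14 FPKM in replicate 2, against 2.32 and 2.28 FPKM in shCtrl. Of these 5 genes 3 had a fold change below 0.

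Helicase loading needs CDC6 and CDT1, while geminin, encoded by GMNN, blocks CDT1 after origins have fired. CDC6 was at 5.07 and 12.7 FPKM with shCtrl, against 2.84 and 9.66 FPKM with shKIAA1429. It had one of the wider replicate gaps, 2.51-fold in shCtrl and 3.40-fold in shKIAA1429, and its log2 fold change of -0.51 (SE 0.62) had a 95% interval from -2.12 to 1.09. CDT1 was at 21.6 and 35.3 FPKM with shCtrl, against 21.6 and 33.2 FPKM with shKIAA1429, nearly the same in libraries of the same number (log2 fold change -0.045, SE 0.32). GMNN showed the same arrangement, at 8.89 and 15.6 FPKM against 8.83 and 14.5 FPKM.

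The MCM helicase had the lowest median log2 fold change of the 12 roles, -0.34, with all 6 subunits below 0. MCM7 (chromosome 7, 99690352 to 99699563, minus strand, GRCh37) was at 74.1 and 62.4 FPKM with shCtrl, against 39.2 and 46.6 FPKM with shKIAA1429. It was the subunit whose groups did not overlap, the shCtrl mean being 68.2 ± 8.29 FPKM (SD, n = 2) and the shKIAA1429 mean 42.9 ± 5.21 FPKM (SD, n = 2). Its log2 fold change was -0.66 (SE 0.16, 95% interval -1.08 to -0.24), with a limma adjusted p = 0.650 over all genes tested, so that it was not called. It stayed between -0.78 and -0.53 when each library was left out in turn. In shCtrl MCM7 was lower in replicate 2 than in replicate 1, unlike the other 5 subunits.

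MCM5 was at 62.0 and 87.1 FPKM with shCtrl, against 34.2 and 84.0 FPKM with shKIAA1429, so that shKIAA1429 replicate 1 was by far the lowest. MCM2 was at 29.2 and 47.8 FPKM with shCtrl, against 20.1 and 44.3 FPKM with shKIAA1429. MCM3, MCM4 and MCM6 had the same order of libraries or nearly so, with shKIAA1429 replicate 1 lowest at 21.6, 12.1 and 10.7 FPKM. The log2 fold changes of these 5 subunits lay between -0.44 and -0.22, with SEs from 0.36 to 0.51, and none differed beyond the spread between replicates. The subunits form a ring in equal numbers, whereas their RNA levels, averaged over the libraries, spanned 17.1 FPKM for MCM6 to 66.8 FPKM for MCM5.

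**Figure D3:**
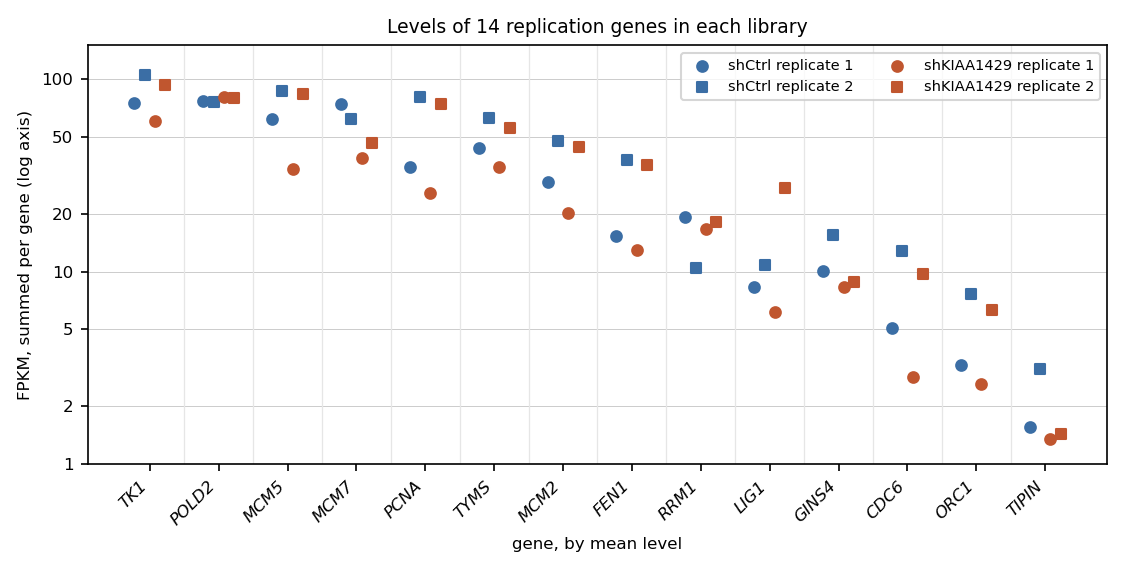
FPKM of 14 replication genes, summed over transcripts and drawn on a log axis, in each of the 4 libraries; blue is shCtrl, orange shKIAA1429, circles replicate 1 and squares replicate 2. Squares lie above circles in both groups for most genes, MCM7 separates by color, and the 4 points of POLD2 lie between 76.0 and 80.5.

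Helicase activation genes all had a fold change below 0, with a median of -0.20, and all 6 were higher in replicate 2 of both groups. CDC45, part of the active helicase, was at 10.3 and 15.2 FPKM with shCtrl, against 8.11 and 18.4 FPKM with shKIAA1429 (log2 fold change -0.024, SE 0.41). Its lowest and its highest value thus both lay in shKIAA1429. MCM10, which helps the helicase start, was 1.78-fold higher in replicate 2 of shCtrl and 3.19-fold higher in replicate 2 of shKIAA1429. GINS4, a GINS subunit, was at 10.1 and 15.5 FPKM with shCtrl, against 8.31 and 8.81 FPKM with shKIAA1429. Its groups did not overlap (log2 fold change -0.50, SE 0.23, 95% interval -1.10 to 0.094, limma adjusted p = 0.917). Leaving out shCtrl replicate 2 brought that fold change to -0.22, and leaving out shCtrl replicate 1 to -0.79. It was -1.75 with its most abundant transcript, GINS4-209, in place of the sum. That transcript was at 5.46 FPKM in shKIAA1429 replicate 1 and 0.36 FPKM in replicate 2. The transcripts GINS4-203 and GINS4-201 went the other way, with log2 fold changes of 0.28 (SE 0.46) and 0.47 (SE 0.51). The other GINS genes, GINS1, GINS2 and GINS3, were 1.81-fold to 2.40-fold higher in replicate 2 of shCtrl and 2.12-fold to 2.66-fold higher in replicate 2 of shKIAA1429, and GINS4 lacked that gap in shKIAA1429, at 1.06-fold.

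Of the polymerases, the alpha-primase genes POLA1, POLA2 and PRIM1 lay between 3.54 and 11.3 FPKM in all libraries. The log2 fold change of each was between -0.22 and -0.065. POLE, the catalytic subunit of the leading-strand polymerase, was at 12.7 and 17.7 FPKM with shCtrl, against 11.2 and 18.0 FPKM with shKIAA1429 (log2 fold change -0.074, SE 0.28). POLD1, the catalytic subunit of polymerase delta, was at 18.4 and 21.7 FPKM with shCtrl, against 15.6 and 23.2 FPKM with shKIAA1429. Neither separated the groups. The accessory subunits POLD3 and POLE2 were low, between 2.44 and 6.12 FPKM in all libraries, with log2 fold changes of -0.015 (SE 0.24) and -0.22 (SE 0.34).

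POLD2 (chromosome 7, 44154280 to 44163957, minus strand), an accessory subunit of polymerase delta, was the steadiest of the 49 genes. It was at 76.8 and 76.0 FPKM with shCtrl, against 80.5 and 80.2 FPKM with shKIAA1429. Its replicates differed by less than 0.02 on the log2 scale in either group, and its shKIAA1429 values were the higher ones. The difference was small (log2 fold change 0.072, SE 0.11, limma adjusted p = 0.987). The log2 fold change was 0.030 with mitochondrial transcripts left out and each library rescaled to the same total. It was the second most abundant of the replication genes by mean FPKM, after TK1.

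PCNA, the clamp that tethers the polymerases, had replicate gaps far wider than any group difference. It was at 34.9 and 81.3 FPKM with shCtrl, against 25.7 and 74.4 FPKM with shKIAA1429, or 2.33-fold and 2.90-fold higher in replicate 2. Its log2 fold change was -0.28 (SE 0.63), with a 95% interval from -1.90 to 1.35. The clamp loader genes RFC2, RFC3, RFC4 and RFC5 were also higher in replicate 2 of both groups, by 1.38-fold to 2.18-fold. RFC1, the large subunit, was at 6.21 and 6.20 FPKM with shCtrl, against 4.89 and 6.29 FPKM with shKIAA1429. All 6 genes of this role had a fold change below 0, with a median of -0.19; the most negative was RFC3 (log2 fold change -0.45, SE 0.38, limma adjusted p = 0.973).

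On the lagging strand FEN1 trims the flap of each Okazaki fragment and DNA ligase 1, encoded by LIG1, seals the nick. FEN1 was at 15.3 and 38.1 FPKM with shCtrl, against 12.9 and 36.0 FPKM with shKIAA1429, the same arrangement as PCNA. LIG1 was at 8.33 and 10.8 FPKM with shCtrl, against 6.14 and 27.2 FPKM with shKIAA1429. The gap between the shKIAA1429 replicates of LIG1, 4.42-fold, was the widest of the 49 genes, and its log2 fold change of 0.44 (SE 0.66) turned to -0.55 without shKIAA1429 replicate 2. RPA1, the large subunit of the single-strand binding protein, was at 17.6 and 29.3 FPKM with shCtrl, against 16.2 and 30.5 FPKM with shKIAA1429 (log2 fold change -0.029, SE 0.38). Its partners RPA2 and RPA3 had log2 fold changes of -0.24 (SE 0.30) and 0.074 (SE 0.23), and both were also higher in replicate 2 of either group.

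The nucleotide supply genes included TK1, thymidine kinase, the most abundant of the 49 genes. It was at 75.6 and 104.9 FPKM with shCtrl, against 60.9 and 93.2 FPKM with shKIAA1429 (log2 fold change -0.24, SE 0.27). TYMS, thymidylate synthase, was at 43.8 and 62.7 FPKM with shCtrl, against 35.1 and 56.0 FPKM with shKIAA1429. For both genes shKIAA1429 lay below the shCtrl library of the same number, while the groups overlapped. DUT, which encodes the dUTPase that keeps uracil out of DNA, lay between 14.8 and 20.5 FPKM (log2 fold change 0.076, SE 0.21).

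The subunits of ribonucleotide reductase, which makes deoxynucleotides, did not follow each other. RRM2, the small subunit that cells make in S phase, was at 24.0 and 38.5 FPKM with shCtrl, against 17.3 and 33.9 FPKM with shKIAA1429. RRM1, the large subunit, was at 19.2 and 10.5 FPKM with shCtrl, against 16.7 and 18.2 FPKM with shKIAA1429. RRM1 was thus lower in replicate 2 of shCtrl, with a log2 difference of -0.81 that was the largest in that direction among the 49 genes in shCtrl. Its log2 fold change was 0.28 (SE 0.29) and it was -0.13 without shCtrl replicate 2.

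Fork protection and chromatin assembly followed the wider pattern. CLSPN, which encodes the checkpoint adaptor claspin, was at 4.47 and 9.06 FPKM with shCtrl, against 3.20 and 11.0 FPKM with shKIAA1429. WDHD1, a fork protein that links the helicase to polymerase alpha, lay between 2.49 and 4.82 FPKM, with a log2 fold change of -0.12 (SE 0.31). TIPIN, which binds the fork protein TIMELESS, was at 1.56 and 3.10 FPKM with shCtrl, against 1.35 and 1.42 FPKM with shKIAA1429, the lowest level of the 49 genes. Its groups did not overlap, but shCtrl replicate 1 lay closer to both shKIAA1429 libraries than to shCtrl replicate 2 (log2 fold change -0.44, SE 0.27, limma adjusted p = 0.954). Leaving out shCtrl replicate 2 brought that fold change to -0.10, and leaving out shCtrl replicate 1 to -0.78. CHAF1A, the large subunit of the chromatin assembly factor that places histones behind the fork, was at 8.12 and 16.0 FPKM with shCtrl, against 6.0 and 13.4 FPKM with shKIAA1429. CHAF1B, its partner, was 1.80-fold and 2.30-fold higher in replicate 2.

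The same comparison was made in other genes of the cell cycle. Of 32 further replication factors, 24 were higher in replicate 2 of shCtrl and 29 in replicate 2 of shKIAA1429, and 25 had a fold change below 0, with a median of -0.10. The shKIAA1429 pair lay wholly below the shCtrl pair for 4 of them and wholly above for 5, where 16.7% and 16.9% of all genes tested did so. RNASEH2A, a subunit of the enzyme that removes RNA primers, was at 34.2 and 42.1 FPKM with shCtrl, against 31.1 and 17.2 FPKM with shKIAA1429 (log2 fold change -0.69, SE 0.31, limma adjusted p = 0.907). CHTF18, of an alternative clamp loader, was at 3.89 and 3.33 FPKM with shCtrl, against 5.72 and 8.06 FPKM with shKIAA1429 (log2 fold change 0.76, SE 0.21, limma adjusted p = 0.730). Of its partners in that loader, CHTF8 had a log2 fold change of 0.54 (SE 0.23), with groups that did not overlap, and DSCC1 had -0.44 (SE 0.43), with groups that overlapped. RTEL1, a helicase, had 0.29 (SE 0.16). None of the 32 genes was called in limma, and 1, CHTF18, had an unadjusted p under 0.05.

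Of 14 further nucleotide supply genes, 9 had a fold change below 0, with a median of -0.066, and replicate differences were small, with medians of 0.057 and 0.11. CTPS1, which makes CTP, was at 159.8 and 129.1 FPKM with shCtrl, against 102.7 and 109.4 FPKM with shKIAA1429 (log2 fold change -0.44, SE 0.15, limma adjusted p = 0.872). SAMHD1, which degrades deoxynucleotides, had a log2 fold change of -0.32 (SE 0.15). NME2 and IMPDH2, of nucleotide metabolism, had 0.12 and 0.11. The groups of each of these 4 genes did not overlap. Among the 14 genes the shKIAA1429 pair lay wholly below for 2 and wholly above for 4, TK2 and RRM2B being the others above, against 16.7% and 16.9% of all genes, and none of the 14 genes was called in limma, while 1, CTPS1, had an unadjusted p under 0.05.

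G1/S regulators were less uniform. All of the 27 genes but E2F6 passed the filter, leaving 26, of which 18 were higher in replicate 2 of each group, and 15 of them had a fold change below 0, with a median of -0.047. E2F1, an activator of the replication genes, was at 12.2 and 22.1 FPKM with shCtrl, against 6.89 and 18.2 FPKM with shKIAA1429 (log2 fold change -0.51, SE 0.50). E2F4, which acts mainly as a repressor in resting cells, was at 10.1 and 7.73 FPKM with shCtrl, against 28.1 and 13.6 FPKM with shKIAA1429. Its groups did not overlap (log2 fold change 1.07, SE 0.36, limma adjusted p = 0.871), and the spread within shKIAA1429 was wide. CCNE1, the cyclin that starts S phase, was at 2.67 and 6.96 FPKM with shCtrl, against 2.64 and 7.01 FPKM with shKIAA1429, which separated the replicate numbers and not the groups.

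The cyclin-dependent kinase genes CDK2 and CDK6 had log2 fold changes of -0.34 (SE 0.22) and -0.26 (SE 0.15), and the inhibitor gene CDKN1B had -0.18 (SE 0.15). These were the 3 G1/S regulators with the shKIAA1429 pair wholly below, and 3 lay wholly above, E2F4, CCND2 with 0.74 (SE 0.29) and CDK4 with 0.14 (SE 0.13), against 16.7% and 16.9% of all genes. CDKN1A, which encodes the inhibitor p21, was at 155.8 and 166.7 FPKM with shCtrl, against 158.9 and 153.3 FPKM with shKIAA1429. No G1/S regulator was called in limma, and 1, E2F4, had an unadjusted p under 0.05.

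Of 28 G2/M genes, which serve mitosis, 28 were higher in replicate 2 of shCtrl and 27 in replicate 2 of shKIAA1429, with median differences over the 28 of 0.49 and 0.54. Their median log2 fold change was -0.015, with 16 of 28 below 0; 0 were called in limma and 0 had an unadjusted p under 0.05. The replicate gap was therefore present in both the replication and the mitotic genes, while the median of the mitotic genes lay near that of all genes. MKI67, the proliferation marker, was at 14.9 and 39.4 FPKM with shCtrl, against 28.2 and 38.1 FPKM with shKIAA1429 (log2 fold change 0.42, SE 0.47). AURKA, a mitotic kinase, was the G2/M gene whose groups did not overlap (log2 fold change -0.34, SE 0.20, limma adjusted p = 0.952). In the promoter windows, 8.7% of the matched G2/M genes had an E2F match and 87.0% had CCAAT, against 51.2% and 62.8% of the replication genes. The share with an E2F match was 23.1% in the further replication factors, 28.6% in the G1/S regulators and 9.09% in the further nucleotide supply genes.

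**Figure D4:**
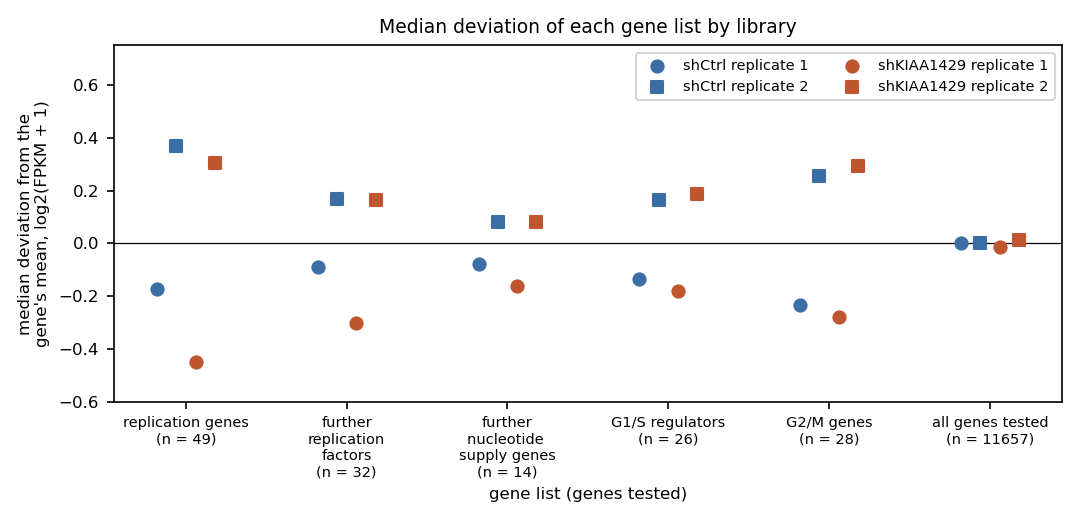
The vertical axis gives, for each library, the median over a gene list of log2(FPKM + 1) minus the mean of the gene; blue is shCtrl, orange shKIAA1429, circles replicate 1 and squares replicate 2. Replicate 2 lies above replicate 1 in all 5 lists, with the lowest point at -0.45 for the replication genes in shKIAA1429 replicate 1, and all genes tested lie near 0.

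The files list transcripts, so the mix of transcripts behind each gene was also examined. The 49 genes had 148 listed transcripts, of which 131 were labelled protein_coding and 17 processed_transcript, and 103 passed the filter. None was called, against 0% of all 24996 transcripts tested, and 5 had an unadjusted p under 0.05 in limma, where 6.28% of all transcripts had one. The shKIAA1429 pair lay wholly below the shCtrl pair for 12 of the 103 and above for 11, against 16.8% and 16.7% of all transcripts. Of the 42 genes with more than 1 transcript, 16 had a different leading transcript in different libraries, or 38.1% against 41.4% of the 8503 tested genes of that kind.

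MCM3 changed its leading transcript between the shCtrl libraries, and MCM3-207 led in both shKIAA1429 libraries. MCM3-201 was at 25.8 and 0.52 FPKM with shCtrl, against 6.27 and 0.017 FPKM with shKIAA1429. MCM3-205 was at 0.39 and 46.8 FPKM with shCtrl, against 0.51 and 10.3 FPKM with shKIAA1429. MCM3-207 was at 2.81 and 3.28 FPKM with shCtrl, against 12.6 and 34.6 FPKM with shKIAA1429 (log2 fold change 2.44, SE 0.53, limma adjusted p = 0.480 over all transcripts). The share of MCM3-207 in the gene was 8.60% and 5.81% in shCtrl and 58.4% and 67.5% in shKIAA1429. In the files these transcripts span almost the same stretch of chromosome 6, ending at 52149549, 52149635 and 52149679, and reads shared between them can be assigned to either, so their single values are uncertain.

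In LIG1 the transcript LIG1-221 was at 3.19 and 4.74 FPKM with shCtrl, against 0.00 and 0.020 FPKM with shKIAA1429, with the smallest adjusted p-value of the replication transcripts (log2 fold change -2.28, SE 0.25, limma adjusted p = 0.182). The higher sum of LIG1 in shKIAA1429 replicate 2 came mostly from LIG1-202, at 19.3 FPKM there and 2.57 to 4.03 FPKM elsewhere. RFC3-202 was at 1.86 and 4.07 FPKM with shCtrl, against 0.057 FPKM and a listed 0 with shKIAA1429 (log2 fold change -1.89, SE 0.35, limma adjusted p = 0.380), while RFC3-201 was at 2.93 and 3.70 FPKM against 2.76 and 6.14 FPKM. The lower sum of RFC3 in shKIAA1429 thus lay in 1 of its transcripts. With a pseudocount of 0.1 the fold changes of LIG1-221 and RFC3-202 were -5.19 and -4.51, so that their size depends on that choice. A value of 0 may be a failed estimate, since reads must be divided among transcripts that overlap.

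In RRM1 the difference between the shCtrl replicates lay in RRM1-214, at 10.6 and 0.30 FPKM with shCtrl, against 5.87 and 0.79 FPKM with shKIAA1429. RRM1-201 was at 8.61 and 10.2 FPKM with shCtrl, against 10.8 and 17.4 FPKM with shKIAA1429, so that taken alone it was higher in replicate 2 of both groups, as most replication genes were. In GINS4 the low value of shKIAA1429 replicate 2 lay in GINS4-209, at 0.36 FPKM there and 5.46 to 10.8 FPKM in the other libraries. GINS4-203 and GINS4-201 had their highest values in that library, at 5.57 and 2.87 FPKM. MCM5-202, which led in 3 libraries, fell behind MCM5-201 in shKIAA1429 replicate 1, at 16.3 against 17.6 FPKM. The remaining genes with a changing leader were CLSPN, DUT, MCM10, ORC1, ORC3, ORC5, ORC6, POLE2, PRIM1 and RFC5.

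The last 2 transcripts with an unadjusted p under 0.05 belong to MCM7 and POLD1 and were picked for that p, with their values known. MCM7-201 was at 71.5 and 54.3 FPKM with shCtrl, against 35.6 and 39.7 FPKM with shKIAA1429 (log2 fold change -0.71, SE 0.19, limma adjusted p = 0.601). It made up 85.2% to 96.5% of MCM7 in every library, so that the lower MCM7 lay in its main transcript. POLD1-201 was at 0.86 and 1.21 FPKM with shCtrl, against 2.96 and 6.26 FPKM with shKIAA1429 (log2 fold change 1.40, SE 0.38, limma adjusted p = 0.607), whereas the sum of POLD1 did not separate the groups.

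**Figure D5:**
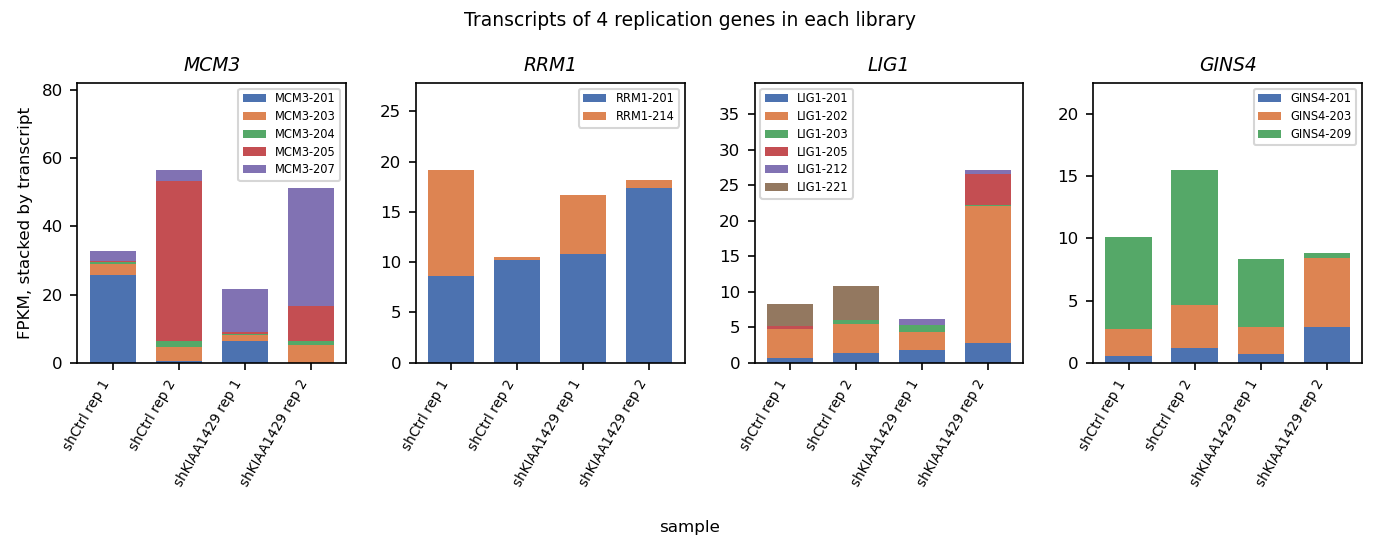
Stacked bars give FPKM by transcript for MCM3, RRM1, LIG1 and GINS4 in each of the 4 libraries, with 1 color per transcript within a gene. In MCM3 the main color differs between the shCtrl libraries, while MCM3-207 is the main one in both shKIAA1429 libraries. RRM1-214 is large in both replicate 1 libraries, and LIG1-202 makes most of the tall bar of shKIAA1429 replicate 2.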

How the data were processed

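RNA from 2 shCtrl and 2 shKIAA1429 samples of HCCLM3 was examined, grouped by their titles. Per the file headers, the deposited values are FPKM per annotated transcript on hg19 (GRCh37). The tool by which the authors made them is not given in the sources used here; the submitters' processing notes name Bowtie2 2.1.0, and the methods describe gene counts that were not analysed here. Since FPKM is scaled to the total mapped, abundant RNAs shift all other values. Depth is unknown, and no interval for counting error can be given. The 38510 listed transcripts all reached at least 0.504 FPKM in some sample, and 108 gene symbols turned into dates were recovered from the other files.

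The FPKM of all transcripts of a gene were summed, log2(FPKM + 1) was taken, and genes with at least 1 FPKM in at least 2 samples were compared between the groups, with no other term, by moderated linear models (limma 3.58.1 under R 4.3.3, eBayes with a mean trend, two-sided) and Benjamini-Hochberg adjustment over all genes. Transcripts were tested likewise. The 95% intervals used 2 residual and 2.87 prior degrees of freedom. An exact permutation test of 2 against 2 samples cannot go below p = 0.333 and was not used. The fit was tested on simulated data in which genes and libraries varied independently, so that deviations shared within a replicate number were not covered. Strand and multiple mapping rules are not given, so values of paralogs and of genes that overlap, antisense pairs included, are uncertain.

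The 49 genes and the other lists were chosen with earlier results of these data known. By rule, genes with groups that do not overlap and the best known genes of each role were described in every sample; of each further list, up to 4 genes with the largest absolute log2 fold change among those with a mean of at least 5 FPKM and no overlap, plus E2F1, CCNE1, CDKN1A, MKI67 and VIRMA; and transcripts of genes whose leading transcript differed between samples. CCND2, CDK4, TK2, RRM2B and DSCC1 fall outside this rule and were chosen with their values known. Of the markers of other cell types, 2 of 6 leukocyte, 0 of 4 endothelial and 5 of 6 fibroblast and stellate genes had values, summing to 46.7 to 56.3 FPKM and 71.9 to 79.6 FPKM. Alternatives were other scalings, filters, pseudocount and thresholds, the most abundant transcript in place of the sum, a replicate block and leaving out each sample. Python 3.11.15 and matplotlib 3.10.9 made the figures.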

Additional observations from a re-analysis of the deposited data

How the results depend on the processing

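With 2 libraries per group, 1 library could decide a value. No replication gene and no replication transcript passed both thresholds under any alternative that kept the test. The fold threshold alone was passed by 0 replication genes, against 125 of the 11657 genes tested. It was passed by 7 of the 103 replication transcripts, and the share of all transcripts that passed it was not computed. The median log2 fold change of the replication genes was -0.25 to -0.17 under the other scalings, filters, pseudocount and transcript choice, and it ran from -0.55 to 0.24 when a library was left out, with 0.065 without shCtrl replicate 2 and 0.24 without shKIAA1429 replicate 1. The count of replication genes below 0, whose alternatives were added after the data were seen, was 42 to 43 under those settings and 5 to 44 when a library was left out. The count with the shKIAA1429 pair wholly below the shCtrl pair was 5 with mitochondrial transcripts left out and each library rescaled. It was 8 with the most abundant transcript in place of the sum, and 4 to 44 when a library was left out. The share of all genes arranged so was 16.7% in the main fit. It was not computed for the rescaling or the most abundant transcript, so those counts have no background to be read against. The count with the pair wholly above was 1 to 19 when a library was left out. Such counts are easier to reach with 1 library in a group, and the lone library was assumed to vary like the other group.

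The replicate numbers were examined as a possible pairing. Deviations from the group means correlated at 0.32 between samples of the same number over all genes tested and at 0.68 over the replication genes, but there were only 2 pairs and no label ties the numbers to a batch. With the number as a block, 0 genes and 0 replication genes were called; in this balanced layout the block cannot change a fold change, so the median of -0.18 is the same by construction.

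Of 32 single genes and transcripts, 213 of 216 values outside the leaving out of libraries kept their direction and their side of the threshold. The exceptions were CCNE1, ORC1 and RFC3. CCNE1 was at 0.012 with upper quartile scaling, against -4.56e-06 in the main fit, so that a very small shift changes its sign. With the most abundant transcript in place of the sum, ORC1 was at 0.050 and RFC3 at 0.27. When a library was left out, 22 of the 32 changed sign, and none was called.
Their log2 fold changes ranged as follows when each library was left out: CCNE1 -0.57 to 0.57, CDC45 -0.57 to 0.52, CDC6 -1.25 to 0.22, CDKN1A -0.094 to 0.0029, CDT1 -0.39 to 0.29, CHAF1A -0.83 to 0.21, CLSPN -0.82 to 0.70, E2F1 -1.15 to 0.13, FEN1 -0.86 to 0.55, LIG1 -0.55 to 1.43, MCM2 -0.86 to 0.24, MCM5 -1.08 to 0.19, MKI67 -0.26 to 1.09, ORC1 -0.75 to 0.27, PCNA -1.03 to 0.47, POLE -0.39 to 0.24, RFC3 -0.90 to 0.0026, RPA1 -0.47 to 0.41, RRM1 -0.13 to 0.68, RRM2 -0.78 to 0.15, TK1 -0.54 to 0.065, TYMS -0.57 to 0.093.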
